A study of Homo sapiens with 15 samples.

Results

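The proteasome subunit genes are those named PSMA, PSMB, PSMC, PSMD, PSME, PSMF or PSMG followed by a number. They were taken from the deposited tables by name alone, and all regions of a name were added up. Of the 19531 names in the tables, 46 matched: 7 PSMA, 10 PSMB, 6 PSMC, 14 PSMD, 4 PSME, 1 PSMF and 4 PSMG. PSMA1 and PSMB10 stand in the tables only under names joined with another gene and are not among the 46. Most reads of PSMA2 and PSMA6 also lie under joined names (a median of 3263 reads per library against 66 under the name PSMA2 alone, and 2345 against 0 for PSMA6).

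The libraries come from U2OS, a human osteosarcoma cell line, and were made by SLAM-seq: cells take up 4-thiouridine, the RNA is alkylated, and new RNA is then read with T-to-C conversions. Asynchronous cultures took up 4-thiouridine and EdU for 45 min, were fixed with glyoxal and methanol, and were sorted by EdU signal and DNA content; the series title calls the cells synchronised, which the protocol does not. The 15 libraries, each from 500 ng of RNA, fall into 5 groups of 3: G1, Early_S, Late_S, G2 (G2/M in the protocol) and No_alkylation, named for the omitted alkylation, with no label saying which cells it holds. Every group is the same unmodified line under the same protocol text, and no label says that the 3 libraries of a group are separate cultures, so p-values measure only the spread between these libraries. A read with a T>C conversion is called a T>C read here, all reads give the steady-state level, T>C reads give the nascent level, and their ratio is the labelled share.

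The proteasome degrades proteins tagged with ubiquitin. Its barrel-shaped core particle is built from PSMA subunits (the outer, gating rings) and PSMB subunits (the inner rings with the peptidase sites), and its regulatory particle from PSMC ATPases, which unfold substrates, and PSMD subunits, which bind and trim ubiquitin. PSME proteins and PSMF1 bind the core as alternative activators or as an inhibitor, and PSMG proteins are chaperones of core assembly; PSMD5, PSMD9 and PSMD10, despite their names, are chaperones of the regulatory particle. The genes are widely expressed, and many of their promoters answer together to the factor NFE2L1 when the proteasome is impaired.

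The libraries held 16096695 to 21803972 reads in the annotated regions, with 1812606 to 4037464 T>C reads when alkylated and 175212 to 182253 in No_alkylation. Across all reads the labelled share was 22.3% ± 0.740 (SD, n = 3) (G1), 18.4% ± 0.516 (Early_S), 10.0% ± 0.0870 (Late_S), 10.1% ± 0.336 (G2) and 1.01% ± 0.0179 (No_alkylation). Summed G2/M genes went from 299 to 325 CPM (reads scaled to library size) in G1 to 1051 to 1114 in G2, and No_alkylation lay between them at 693 to 730. Summed G1/S genes (CCNE1, CCNE2 and CDC6) gave 231 to 259 CPM in G1 and 135 to 177 in G2. Early_S gave 172 to 181 and Late_S 170 to 182. In these genes No_alkylation lay above every phase, at 263 to 311. Mesenchymal markers summed to 5135 to 6815 CPM, with COL1A2 at 0 to 32 reads per library, against 11.0 to 36.6 for epithelial, 0 to 4.99 for blood and 0 to 1.80 for endothelial markers; CD3E, LYZ and KDR had 0 reads in every library.

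Promoters are shown for 4 members whose steady-state level differed between G1 and G2 in opposite directions: PSMB5 and PSMB8, which encode alternative versions of one peptidase subunit, and the ATPase genes PSMC5 and PSMC6. RefSeq (GRCh38.p14) gave a promoter window of 300 bases, from 250 before to 50 after a start, for 40 of the 46 members in 49 entries; PSMA7, PSMB1, PSMB6, PSMB7, PSMD4 and PSMG3 had no entry. The capitals mark matches, on either strand, to the antioxidant response element TGACNNNGC, the CCAAT box CCAAT and the ETS motif CCGGAA. The windows are the first entry listed for each gene, printed 5′ to 3′ on the gene's strand: PSMB5 chr14:23035171-23035470 (minus), PSMB8 chr6:32844630-32844929 (minus), PSMC5 chr17:63827181-63827480 (plus) and PSMC6 chr14:52706950-52707249 (plus).
PSMB5: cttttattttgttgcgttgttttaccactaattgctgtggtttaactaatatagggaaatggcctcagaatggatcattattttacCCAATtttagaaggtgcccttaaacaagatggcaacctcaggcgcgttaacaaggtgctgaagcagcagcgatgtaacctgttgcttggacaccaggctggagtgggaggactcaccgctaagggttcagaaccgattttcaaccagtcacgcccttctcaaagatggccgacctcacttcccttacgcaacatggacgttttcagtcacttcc
PSMB8: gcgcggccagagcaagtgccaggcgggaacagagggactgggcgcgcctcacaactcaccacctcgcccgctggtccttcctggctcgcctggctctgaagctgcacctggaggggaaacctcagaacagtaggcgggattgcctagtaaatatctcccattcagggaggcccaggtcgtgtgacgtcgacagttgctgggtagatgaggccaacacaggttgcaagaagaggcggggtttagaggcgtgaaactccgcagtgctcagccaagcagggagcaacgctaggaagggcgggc
PSMC5: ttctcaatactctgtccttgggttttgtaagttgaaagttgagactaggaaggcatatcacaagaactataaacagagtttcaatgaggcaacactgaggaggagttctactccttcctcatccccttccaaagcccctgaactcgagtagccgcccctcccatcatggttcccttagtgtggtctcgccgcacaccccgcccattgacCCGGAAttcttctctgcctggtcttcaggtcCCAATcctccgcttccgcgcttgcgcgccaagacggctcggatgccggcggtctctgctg
PSMC6: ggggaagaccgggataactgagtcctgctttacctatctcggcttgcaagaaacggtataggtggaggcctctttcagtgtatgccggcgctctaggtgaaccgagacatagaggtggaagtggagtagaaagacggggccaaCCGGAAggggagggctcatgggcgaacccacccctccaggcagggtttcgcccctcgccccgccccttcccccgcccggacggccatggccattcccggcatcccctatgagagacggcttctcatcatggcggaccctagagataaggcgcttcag

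In these windows PSMB5 had 1 CCAAT match (its other entry holds an ETS match), PSMB8 had no match to the 3 motifs, PSMC5 had 1 CCAAT and 1 ETS match (its other entry holds an antioxidant response element), and PSMC6 had 1 ETS match. Over all members the ETS letters were in 22 of 49 entries (44.9%), against 17.25% of all 35116 entries in the table. They were in 15 of 21 entries of PSMC and PSMD genes (71.43%) and in 3 of 18 entries of PSMA and PSMB genes (16.67%). The antioxidant response element was in 15 of 49 entries (30.61%, against 13.35% of all entries), with 3 of 18 for PSMA and PSMB, 7 of 21 for PSMC and PSMD and 5 of 10 for PSME, PSMF and PSMG. CCAAT was in 20 of 49 (40.82%, against 34.61%). Matches to different motifs overlapped in 0 of the 49 entries.

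Steady-state mRNA of the proteasome genes moved little as a whole and in different directions gene by gene. Together the 46 members held 0.972% ± 0.0256 of all reads (G1), 0.939% ± 0.0130 (Early_S), 0.926% ± 0.00342 (Late_S) and 0.916% ± 0.0173 (G2) (SD, n = 3). After the filter on low counts 43 members were tested; PSMB11, which is thymus-specific and had 0 reads, PSMA8, which is testis-specific and had 1 read, and PSMA6 were not. Of the 43, 19 differed across the 4 phases at an adjusted p under 0.05 (edgeR quasi-likelihood F-test, Benjamini-Hochberg over all 13755 names tested), a share of 44.2% beside a background of 34.1% of all names. By role these were 2 of 5 PSMA, 6 of 9 PSMB, 4 of 6 PSMC, 5 of 14 PSMD and 2 of 9 PSME, PSMF and PSMG genes.

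Of the 19, 8 were highest in G1 (PSMA4, PSMA7, PSMB7, PSMB8, PSMC5, PSMD2, PSMD4 and PSMF1), 7 in Early_S (PSMB1, PSMB3, PSMB5, PSMB6, PSMC3, PSMC4 and PSMD8), 0 in Late_S and 4 in G2 (PSMC6, PSMD6, PSMD11 and PSMG2). G2 was the lowest phase for 12 of them. Highest and lowest phases were not counted over all names, so these counts cannot show a trait particular to the members. In Early_S against G1 the test called 3 members higher (PSMB3, PSMB5 and PSMC3) and 5 lower (PSMB8, PSMD2, PSMD6, PSMD12 and PSMF1), against a background of 12.5% of names higher and 11.8% lower. Of these 8 calls 2 held and 6 ended in some fit that left out 1 library: those of PSMB8, PSMC3 and PSMF1, and of PSMB3 (0.26 ± 0.08), PSMD6 (-0.43 ± 0.15) and PSMD12 (-0.23 ± 0.09), whose adjusted p reached 0.0772, 0.287 and 0.286 (edgeR). The PSMD12 call ended in 8 of 12 such fits, and also with the region of most reads alone and without multimapped reads. The calls of PSMB1, PSMB3 and PSMC4 across phases also ended without single libraries (up to 0.21, 0.177 and 0.12). In Late_S against Early_S it called 2 higher (PSMC6 and PSMD11) and 1 lower (PSMB6; 6.99% and 4.25% of names), and in G1 against G2 it called 9 higher and 4 lower (10% and 11.1%). Between Late_S and G2 edgeR called 0 members (background 0.145% of names, 0.0872% higher and 0.0582% lower), with 6 at an unadjusted p under 0.05 and 0 by DESeq2. The median log2 difference over the 43 members was 0.02 for Early_S against G1, -0.05 for Late_S against Early_S, -0.01 for G2 against Late_S and 0.03 for G1 against G2, beside -0.00408, -0.04, 0.00272 and 0.00849 over all names.

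**Figure D1:**
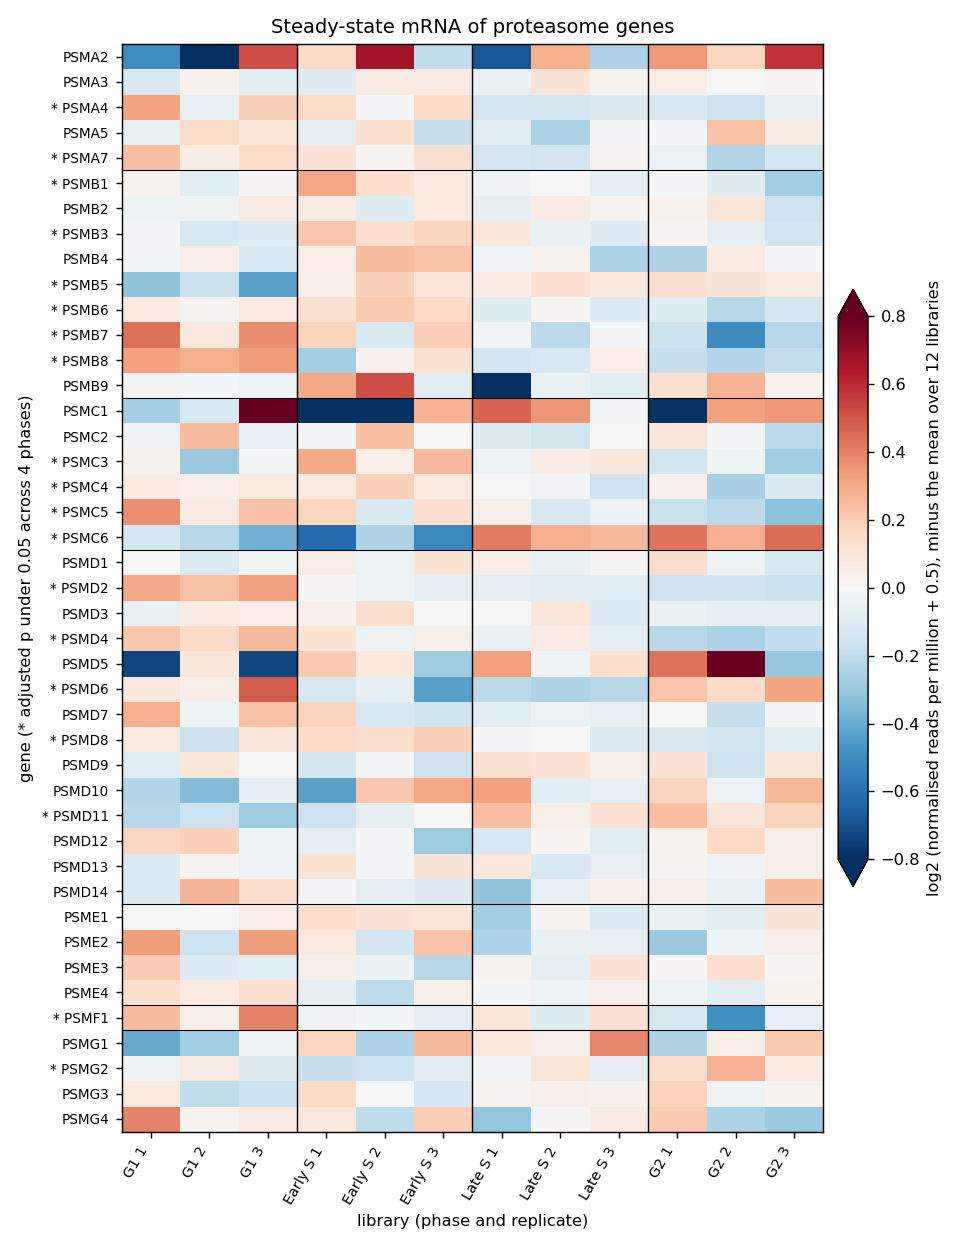
Each row is 1 of the 43 tested proteasome genes and each column 1 of the 12 alkylated libraries; colour is the log2 level minus the gene's mean over the 12, red for higher and blue for lower, and an asterisk marks the 19 genes with an adjusted p under 0.05. PSMD2, PSMB7 and PSMB8 are red in G1, while PSMC6 is blue in G1 and Early_S and red in Late_S and G2; the uneven PSMA2 and PSMC1 rows rest on 949 and 277 reads over all 15 libraries.

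Among the PSMA genes, which form the outer rings of the core, PSMA7 and PSMA4 differed across phases and both were highest in G1. PSMA7 measured 803, 707 and 754 (G1), 729, 691 and 739 (Early_S), 617, 611 and 691 (Late_S) and 658, 577 and 615 (G2) (normalised reads, CPM). Every G1 library lay above every G2 library, with a log2 difference of 0.29 ± 0.07 (SE, G1 minus G2; adjusted p = 0.00117, edgeR). PSMA4 measured 439, 336 and 402 (G1), 389, 348 and 394 (Early_S), 319.6, 321 and 325 (Late_S) and 323, 314 and 339 (G2). G1 overlapped G2 through its replicate 2, and the log2 difference was 0.27 ± 0.08 (adjusted p = 0.0135, edgeR); it no longer passed without G1 replicate 1, G1 replicate 3 or G2 replicate 2, where the adjusted p reached 0.171. PSMA5 did not pass the test across phases (adjusted p = 0.320, edgeR), with means between 119 ± 10.3 in Late_S and 138 ± 12.2 in G2 (SD, n = 3). PSMA2 had 2.46 ± 1.71 in G1 and 3.92 ± 0.634 in G2 under its single name, too few reads to separate the phases.

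The peptidase genes of the constitutive core did not move together. PSMB5 encodes the subunit with chymotrypsin-like activity and measured 197, 217 and 183 (G1), 253, 281 and 263 (Early_S), 258, 268 and 260.3 (Late_S) and 269, 264 and 259 (G2). All 9 libraries of the later phases lay above all 3 of G1, and Early_S exceeded G1 by a log2 difference of 0.42 ± 0.08 (adjusted p = 0.000134, edgeR), while G1 minus G2 was -0.41 ± 0.08 (adjusted p = 0.000207, edgeR). PSMB7, which encodes the trypsin-like subunit, measured 303, 237 and 289 (G1), 253, 205 and 257 (Early_S), 220.3, 193 and 221 (Late_S) and 198, 157 and 191 (G2). It went the other way: each G2 value lay below each G1 value, and G1 exceeded G2 by 0.60 ± 0.10 (adjusted p = 1.03e-05, edgeR). PSMB6, the gene of the caspase-like subunit, measured 335, 325 and 338 (G1), 347, 370.0 and 357 (Early_S), 299, 321 and 298 (Late_S) and 298, 273 and 291 (G2). Early_S stood above all other phases without overlap, and the level fell from Early_S to Late_S (-0.23 ± 0.07, adjusted p = 0.0409, edgeR) and was higher in G1 than in G2 (0.21 ± 0.07, adjusted p = 0.0379). Both PSMB6 differences were near the threshold. The first no longer passed without G1 replicate 3, any Early_S library, Late_S replicate 1 or Late_S replicate 3 (adjusted p up to 0.158), and the second without G1 replicate 1, G1 replicate 3, G2 replicate 2 or G2 replicate 3 (up to 0.154).

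In cells exposed to interferon, PSMB8 replaces PSMB5 and PSMB9 replaces PSMB6 in the immunoproteasome, whose peptides are favoured for antigen presentation. PSMB8 measured 122, 119 and 123 (G1), 80.4, 99.6 and 106 (Early_S), 87.2, 89.4 and 101 (Late_S) and 85.3, 82.3 and 84.9 (G2). The G1 libraries were above all others and the G2 values lay within the range of Early_S. PSMB8 ran opposite to PSMB5: G1 exceeded G2 by 0.53 ± 0.11 (adjusted p = 0.000480, edgeR). PSMB8 also fell from G1 to Early_S (-0.35 ± 0.11, adjusted p = 0.0194, edgeR), a call that ended without G1 replicate 1, G1 replicate 3 or Early_S replicate 1 (adjusted p up to 0.135). PSMB9 was scarce and measured 22.4, 22.2 and 21.6 (G1), 27.6, 32.0 and 20.9 (Early_S), 11.2, 21.4 and 20.9 (Late_S) and 24.3, 27.2 and 22.7 (G2). Late_S lay below G1 and G2 without overlap and G2 just above G1, but it did not pass the test across phases (adjusted p = 0.152, edgeR).

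**Figure D2:**
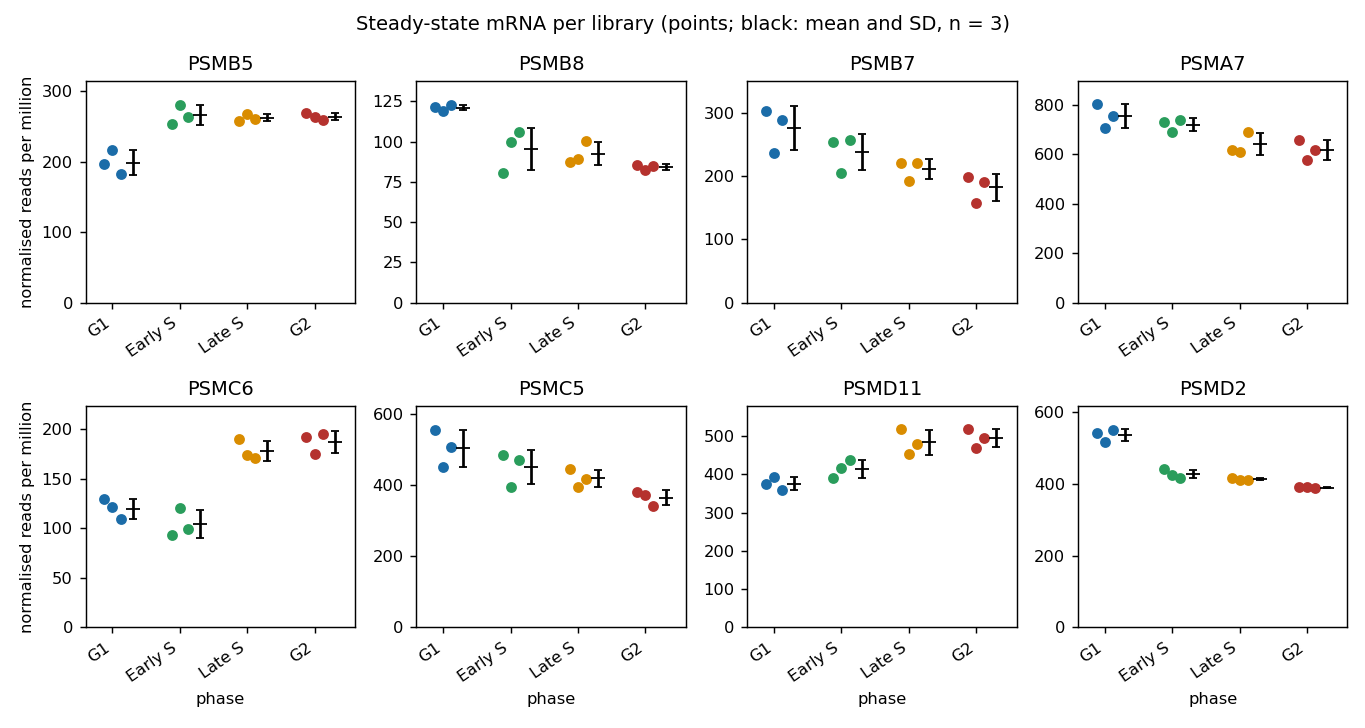
Points are single libraries and the black marks the mean and SD of 3, on an axis of normalised reads (CPM) that starts at 0 and differs between panels. PSMB5 and PSMD11 are lowest in G1 and PSMC6 is lowest in G1 and Early_S, whereas PSMB8, PSMB7, PSMA7, PSMC5 and PSMD2 are lowest in G2.

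The ATPase ring also held opposite patterns. PSMC6 measured 129, 122 and 109 (G1), 92.8, 120.3 and 99.6 (Early_S), 189.5, 173 and 171 (Late_S) and 192, 175 and 195 (G2). All Late_S and G2 libraries exceeded all G1 and Early_S libraries, and the rise from Early_S to Late_S was 0.77 ± 0.10 on the log2 scale (adjusted p = 6.49e-07, edgeR), the largest called change of a member in that comparison. Of PSMC6 reads 64.3% were multimapped, so they may belong in part to near-identical copies; without multimapped reads the same change was 0.77 (adjusted p = 0.000646, edgeR) and G1 minus G2 went from -0.64 ± 0.10 to -0.63 (adjusted p = 0.00268). PSMC5 measured 554, 450.4 and 506 (G1), 485, 395 and 469.9 (Early_S), 443, 394 and 417 (Late_S) and 380.3, 371 and 342 (G2). Its mean was lower in each later phase, every G2 library lay below every G1 library, and G1 exceeded G2 by 0.47 ± 0.08 (adjusted p = 2.10e-05, edgeR).

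PSMC3 measured 162, 129 and 157 (G1), 195, 164 and 189.6 (Early_S), 155, 165 and 168 (Late_S) and 143, 154 and 131 (G2). Early_S exceeded G1 without overlap by 0.30 ± 0.10 (adjusted p = 0.0257, edgeR); the call across phases ended without Early_S replicate 1 or 3 (adjusted p up to 0.11), and that of the contrast also without G1 replicate 2 (up to 0.216) or with the region with the most reads alone. PSMC2 did not pass (adjusted p = 0.651), with means between 76.6 ± 4.03 in Late_S and 85.6 ± 8.84 in Early_S. PSMC1 had 277 reads over all 15 libraries and did not pass.

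Among the PSMD genes, PSMD2, a scaffold that docks ubiquitin receptors, and PSMD11, a lid subunit that clamps the regulatory particle to the core, ran in opposite directions. PSMD2 measured 542, 516 and 549.5 (G1), 440.0, 426 and 416 (Early_S), 417, 412 and 411 (Late_S) and 390.1, 390.1 and 387 (G2). The G1 libraries stood apart from the other 9, and the level fell from G1 to Early_S (-0.33 ± 0.07, adjusted p = 0.000265, edgeR) and was higher in G1 than in G2 by 0.46 ± 0.07 (adjusted p = 1.05e-06). PSMD11 measured 375, 392 and 359.7 (G1), 391, 415 and 437 (Early_S), 519, 453 and 479 (Late_S) and 518, 470.0 and 496 (G2). Each Late_S and G2 library exceeded each G1 library, with -0.40 ± 0.07 for G1 minus G2 (adjusted p = 5.16e-05, edgeR) and 0.22 ± 0.07 for Late_S minus Early_S (adjusted p = 0.0381); the latter call ended without Early_S replicate 1 or 2 or Late_S replicate 1 or 3 (up to 0.231). PSMD4, a ubiquitin receptor, measured 375, 359.8 and 386 (G1), 348, 314 and 334 (Early_S), 312, 338 and 306 (Late_S) and 277, 271 and 282 (G2). G1 and G2 did not overlap, and G1 exceeded G2 by 0.44 ± 0.08 (adjusted p = 2.20e-05, edgeR). PSMD6 and PSMD8 were the other PSMD genes that differed across phases, with the highest mean in G2 and Early_S respectively. For PSMD6 the G2 mean of 56.7 ± 3.26 was close to the G1 mean of 56.1 ± 9.88. Early_S had 41.7 ± 5.45 and Late_S 41.1 ± 0.327 (SD, n = 3). The PSMD8 call ended without Early_S replicate 1 or 3 (up to 0.0896), and the PSMD6 call with its region of most reads alone. PSMD5, an assembly chaperone gene, did not pass across phases but was lower in G1 than in G2 (-0.80 ± 0.27, adjusted p = 0.0308, edgeR), which ended without G1 replicate 1, G1 replicate 3, G2 replicate 1 or G2 replicate 2 (up to 0.243).

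Of the 9 PSME, PSMF and PSMG genes, PSMF1 and PSMG2 differed across phases. PSMF1, the gene of a core inhibitor, measured 219.9, 191 and 245 (G1), 181, 183 and 176 (Early_S), 197, 173 and 202 (Late_S) and 169.8, 131 and 177 (G2). G1 exceeded G2 without overlap by 0.45 ± 0.10 (adjusted p = 0.000831, edgeR) and the fall from G1 to Early_S was -0.28 ± 0.10 (adjusted p = 0.0409); the latter call ended without G1 replicate 1, G1 replicate 3 or any Early_S library (up to 0.261). PSMG2, a chaperone of the outer ring, measured 237, 255 and 226 (G1), 213, 215 and 228 (Early_S), 239, 259 and 229.5 (Late_S) and 267, 294 and 253 (G2). Its G2 mean was the highest and its Early_S mean the lowest, and the test across phases (adjusted p = 0.0241, edgeR) no longer passed without Early_S replicate 1, Early_S replicate 2 or G2 replicate 2 (up to 0.148). PSME2, a subunit of the interferon-inducible activator, had means of 95.6 ± 18.1 (G1) and 79.0 ± 9.53 (G2) and did not pass (adjusted p = 0.173); 31.9% of its reads were multimapped.

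Nascent levels, in which T>C reads are scaled to the T>C reads of all names, differed across phases for few proteasome genes. The test called 3 of 42 tested members (7.14%) beside 10.4% of all 11474 names: PSMD14, PSMD8 and PSMG2 (edgeR F-test). In Early_S against G1 edgeR called 0 members, with 5 at an unadjusted p under 0.05 and 1 by DESeq2, beside 5.17% of names (3.69% higher, 1.48% lower). In Late_S against Early_S it called 1 lower and 0 higher, beside 3.53% of names (1.81% lower, 1.72% higher). In G2 against Late_S it called 0, with 5 at an unadjusted p under 0.05 and 0 by DESeq2, beside 0.0523% of names (0.0174% higher, 0.0349% lower). In G1 against G2 it called 1 lower and 0 higher, beside 7.3% of names (4.4% lower, 2.9% higher); DESeq2 called 2 lower and 1 higher. Members held 0.641% to 0.689% of T>C reads in the 4 phases, a smaller part than of all reads.

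PSMD14, the deubiquitinase of the regulatory particle, measured 64.1, 106 and 79.3 (G1), 109, 127 and 95.3 (Early_S), 127, 128 and 149 (Late_S) and 161, 264 and 178 (G2) (normalised T>C reads, CPM). Each G2 library exceeded each Late_S library and each Late_S library exceeded each Early_S library, while Early_S and G1 overlapped. G1 minus G2 was -1.27 ± 0.24 (adjusted p = 0.000746, edgeR). At steady state the G1 and G2 means were 121 ± 15.8 and 119 ± 12.8, and the test across phases gave an adjusted p of 0.30 (edgeR). The nascent difference is relative to other new RNA. Scaled by all reads, the median name was 1.26 higher in G1 than in G2 on the log2 scale. Then 30 members were higher in G1 and 0 lower, beside 6113 and 60 of 11620 names. PSMD14 differed by -0.05 in that scaling (adjusted p = 0.859, edgeR).

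PSMD8, a lid subunit, measured 132, 94.5 and 151 (G1), 186, 205 and 203 (Early_S), 183, 226 and 242 (Late_S) and 171, 134 and 187 (G2). Early_S and Late_S lay above G1, and the test across phases gave an adjusted p of 0.0406 (edgeR), which ended in 7 of the 12 fits that left out 1 library (without G1 replicate 1 or 2, any Early_S library, or Late_S replicate 2 or 3; up to 0.2). PSMG2 measured 482, 583 and 445 (G1), 557, 511 and 619.8 (Early_S), 398, 357 and 366 (Late_S) and 362, 339 and 416 (G2). All Early_S libraries exceeded all Late_S libraries, and the fall from Early_S to Late_S was -0.59 ± 0.14 (adjusted p = 0.0115, edgeR), ended without Early_S replicate 3 (0.0771) or Late_S replicate 2 (0.0502). Its fellow chaperone gene PSMG3 measured 461, 392 and 339.6 (G1), 461, 386 and 355 (Early_S), 248, 289 and 271 (Late_S) and 399, 243 and 324 (G2). Late_S again lay below Early_S without overlap, but PSMG3 missed the threshold across phases (adjusted p = 0.0553, edgeR; it passed in DESeq2, without the low-count filter and with the replicate block).

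The 13 members whose steady-state level differed between G1 and G2 did not pass the nascent test between those phases. PSMB5 gave 179.9 ± 54.7 nascent CPM in G1 and 196 ± 53.3 in G2 (SD, n = 3), a log2 difference of -0.12 ± 0.22 beside -0.41 ± 0.08 at steady state. PSMB7 gave 99.2 ± 18.6 and 103 ± 42.1, a difference of -0.05 ± 0.28 beside 0.60 ± 0.10. For PSMC6 the nascent difference was 0.07 ± 0.34 beside -0.64 ± 0.10, and for PSMD2 0.12 ± 0.18 beside 0.46 ± 0.07. The nascent standard errors of these 4 genes, from 0.18 to 0.34, exceeded the steady-state ones of 0.07 to 0.10. Whether the nascent and steady-state differences differ from each other was not tested. The other genes named for their nascent p were PSMA7 (G1 minus G2 -0.42 ± 0.16), PSMB6 (-0.50 ± 0.24), PSMC2 (-0.58 ± 0.31), PSMC5 (-0.23 ± 0.23) and PSMA2, whose nascent values of 0 to 21.6 rest on few T>C reads.

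**Figure D3:**
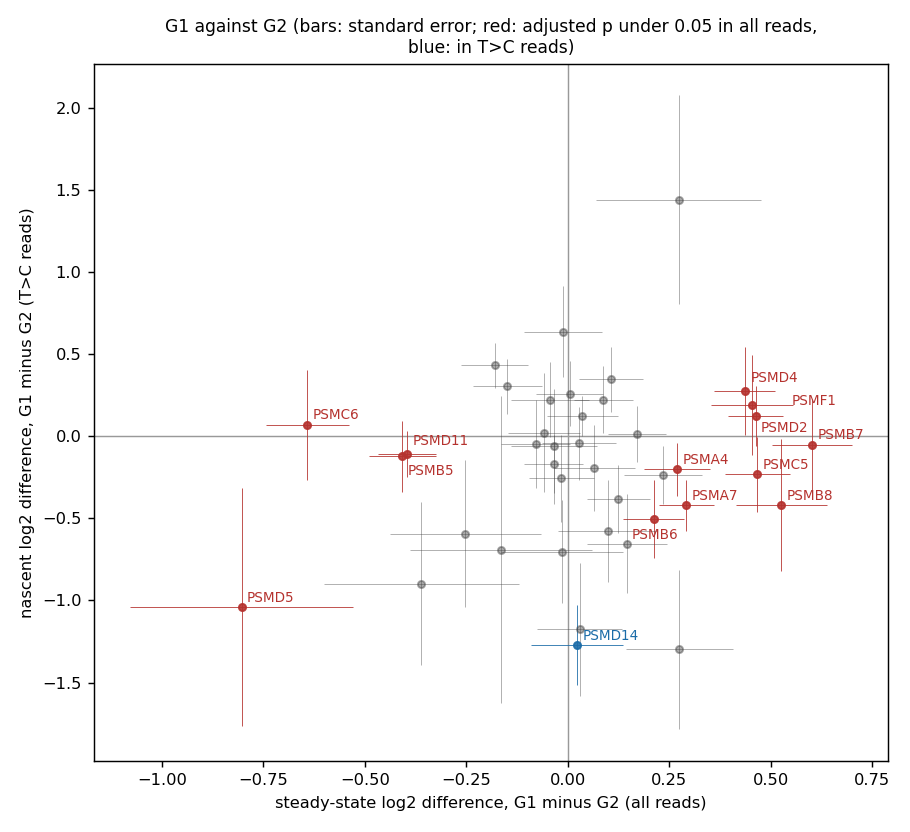
Each point is 1 of 41 members, with the steady-state log2 difference between G1 and G2 on the x axis, the nascent one on the y axis and bars of 1 standard error; PSMA2, at -0.67 and -3.96, is not drawn. The 13 red genes spread along the x axis on both sides of 0 while PSMD14, in blue, lies at 0.02 on the x axis and -1.27 on the y axis.

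The labelled share of the members, summed, was 15.3% ± 0.125 (G1), 13.5% ± 0.226 (Early_S), 6.95% ± 0.176 (Late_S), 7.28% ± 0.257 (G2) and 0.759% ± 0.0482 (No_alkylation) (SD, n = 3). It was below the share over all reads in every group. The labelled share moves with the T content of a region, with RNA turnover and with how much 4-thiouridine the cells took up, and the part of each was not tested. Conversions per covered T position, which allow for T content, were 1.73%, 1.77%, 0.902% and 0.915% for the members (G1, Early_S, Late_S and G2). Over all reads they were 2.52%, 2.35%, 1.29% and 1.28%. The test called 42 of 43 members higher in the alkylated libraries than in No_alkylation and 0 lower, all but PSMC1, whose 28.7% against 0.877% did not pass (edgeR, adjusted p = 0.311; background 83.8% higher and 0.00775% lower). The calls of PSMA2 and PSMB9 ended when single libraries were left out (Early_S replicate 3, with an adjusted p of 1, or No_alkylation replicate 2, 0.0506, for PSMA2; No_alkylation replicate 1, 0.0763, or 2, 0.0647, for PSMB9). In No_alkylation, PSMD6 had 7.2% ± 1.97 and PSMG1 6.62% ± 1.26 T>C reads, while no other member with at least 200 reads in each alkylated library exceeded 1.39%. This background equals 32.2% and 34.1% of their mean share in the alkylated libraries. It was not seen in conversions per covered T position for PSMD6, at 0.0136% ± 0.0125 in No_alkylation beside 0.0447% ± 0.000999 over all reads.

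In G1 the 40 members with at least 200 reads in each alkylated library spanned 4.53% to 50.5%, with a median of 14.2% against 24.6% over the 6870 names of that depth, and 33 of 40 lay below that median. All 13 core members did so, as did 14 of 18 PSMC and PSMD members. PSMD12, a lid subunit, had the highest share and measured 49.2%, 47.0% and 55.2% (G1), 54.7%, 52.4% and 53.0% (Early_S), 26.2%, 24.2% and 26.8% (Late_S) and 21.3%, 18.6% and 20.2% (G2). Its conversion rate in G1 was 5.75% of covered T positions, and PSMG2 followed with 48.3% ± 0.696 in G1, within the range of PSMD12. The order then ran through PSMD10 at 34.8%, PSMG3 at 31.1% and PSMG1 at 28.7%, neighbours whose libraries overlapped. PSME2 had the lowest share in G1 and measured 6.87%, 3.67% and 3.04% (G1), 10.8%, 14.3% and 6.44% (Early_S), 5.53%, 8.34% and 5.20% (Late_S) and 2.48%, 6.28% and 7.81% (G2). Its G1 conversion rate was 0.681%. In G1, PSME1 (5.04%), PSMB9 (6.4%) and PSMB8 (8.10%), the other members tied to antigen presentation, came just above PSME2. This order was not that of the other phases: PSMD13 was lowest in Early_S (6.13%) and G2 (3.41%), and PSMB9 in Late_S (2.22%). PSME1, PSME2, PSMB8 and PSMB9 still lay below the median of the 40 members there, except PSMB8 in G2 (6.50% against 6.19%).

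**Figure D4:**
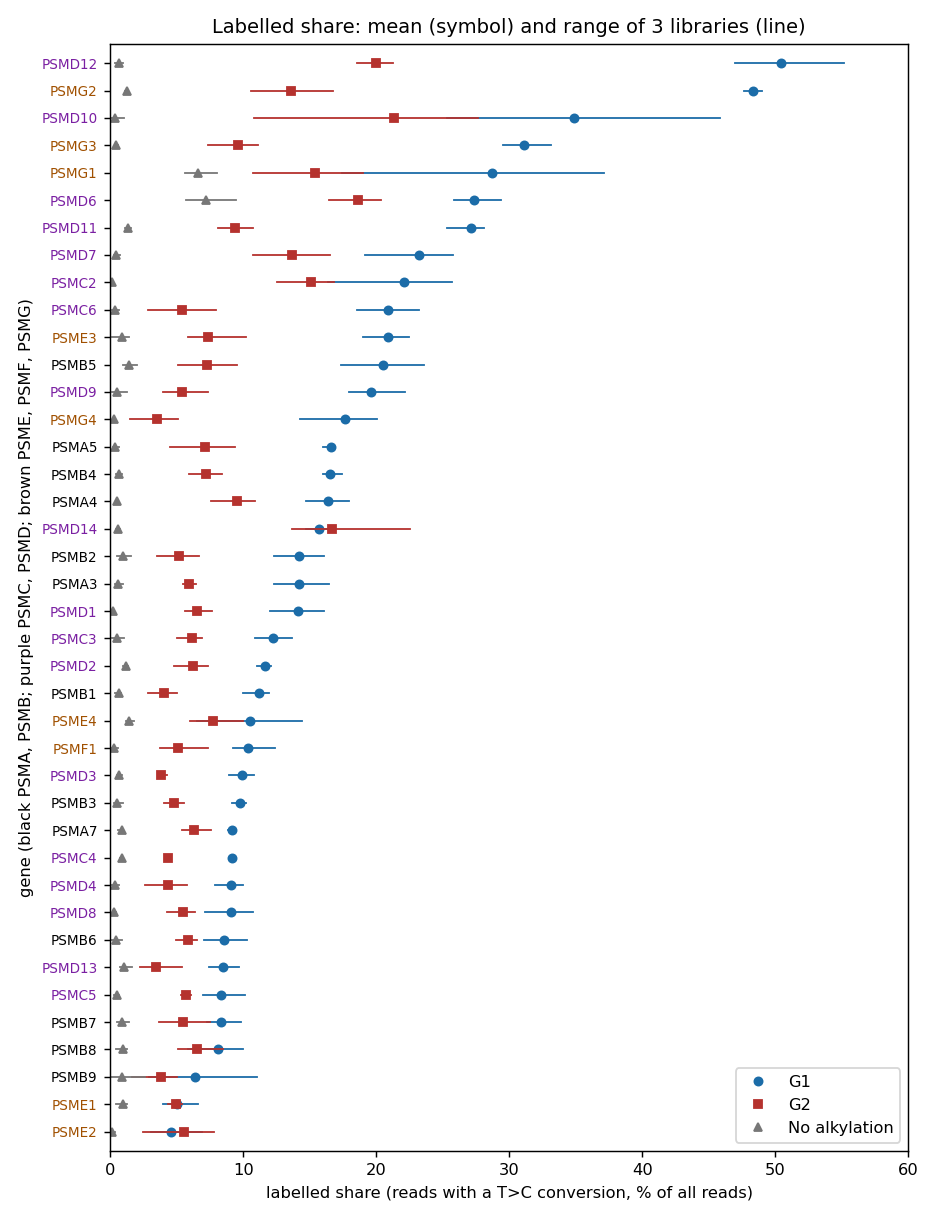
Each of 40 members has its mean labelled share in G1 (blue circles), G2 (red squares) and No_alkylation (grey triangles) on the x axis in percent, with lines for the range of 3 libraries, ordered by the G1 mean. G1 shares run from 50.5% for PSMD12 to 4.53% for PSME2, PSMD6 and PSMG1 stand out in No_alkylation, and PSMD14 has about the same share in G1 and G2.

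Relative to the share of the whole library, which fell from G1 to G2, 13 of 42 tested members differed across phases (edgeR F-test; background 14.8%): PSMA4, PSMA7, PSMB6, PSMB7, PSMC5, PSMD8, PSMD12, PSMD14, PSME1, PSME2, PSME4, PSMG2 and PSMG3. The relative share was highest in G2 for 7 of them, in Late_S for 3, in Early_S for 2 and in G1 for PSMG3 alone. The same count was not made over all names. PSMD14 measured 14.7%, 16.8% and 15.6% (G1), 18.8%, 21.1% and 17.0% (Early_S), 13.8%, 12% and 12.7% (Late_S) and 13.8%, 22.5% and 13.7% (G2). Its share in G2 was 1.06 times that in G1, where the whole library fell from 22.3% to 10.1%. PSMG2 measured 48.3%, 49.0% and 47.6% (G1), 50.5%, 41.9% and 50.6% (Early_S), 16.4%, 13.9% and 15.7% (Late_S) and 13.4%, 10.6% and 16.7% (G2). Its share in G2 was 0.281 times that in G1, and its share relative to the library went from 2.17 ± 0.102 in G1 to 1.34 ± 0.260 in G2. PSMA7 measured 9.18%, 9.38% and 8.86% (G1), 8.06%, 8.52% and 8.78% (Early_S), 4.77%, 5.91% and 4.76% (Late_S) and 7.59%, 5.40% and 5.87% (G2); its steady-state level was highest in G1 and its relative share highest in G2 (0.410 ± 0.0246 in G1, 0.621 ± 0.109 in G2). Single left-out libraries ended 6 of the 13 calls: PSMA4 (any but Late_S replicate 2 or G2 replicate 1, up to 0.137), PSME4 (G1 replicate 2 or 3, Early_S replicate 1 or 3, or any Late_S library, up to 0.252), PSMB6 (G1 replicate 1 or 2, up to 0.0729), PSMB7 and PSME1 (G1 replicate 1, 0.0530 and 0.0558) and PSME2 (G1 replicate 3, 0.0713).

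Where a member had several regions with at least 10% of its reads each, the labelled share could differ between them. PSMD12 had 63.2% of its reads in chr17:67337916-67341052 (minus strand, 3137 bases, 1062 of them T) and 12.4% in chr17:67347336-67347485; their G1 shares were 53.0% ± 3.22 and 38.6% ± 5.58. PSMA3 had 53.0% of reads in chr14:58271896-58272012 (plus strand, 117 bases, 50 of them T), with a G1 share of 20.4% ± 1.66, and 27.9% in chr14:58270934-58270998 (65 bases, 13 of them T), with 6.76% ± 4.88. PSMD6 had both its regions above the general share of T>C reads without alkylation, at 5.90% ± 0.577 in chr3:64010549-64010764 and 11.0% ± 5.83 in chr3:64010878-64010908. Their No_alkylation conversion rates were 0.0147% ± 0.0135 and 0% of covered T positions, below the 0.0447% ± 0.000999 over all reads.

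For the members printed above, most reads came from 1 region: chr14:23025851-23026375 (minus strand) for PSMB5 with 99.6% of its reads, chr6:32840717-32840958 (minus) for PSMB8 with 100%, and chr14:52727499-52728587 (plus) for PSMC6 with 98.5% (hg38). PSMC5 by contrast divided its reads between chr17:63831916-63832026 with 55.2% and chr17:63831724-63831810 with 32.1% (plus strand). In G1 the first held 56.5% ± 3.70 of PSMC5 reads and in G2 54.9% ± 3.17. PSMD2 (chr3:184308891-184309054), PSMD11 (chr17:32480632-32483318) and PSMD14 (chr2:161411401-161411717), all on the plus strand, had 99.5%, 99.97% and 100% of their reads in 1 region.

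Summed over the 17 core names, of which 14 were tested, reads were fewer than over the 20 regulatory particle names in every library. The ratio of these sums, not adjusted for the number of genes, was highest in Early_S. PSMA and PSMB reads divided by PSMC and PSMD reads were 0.752, 0.728 and 0.734 (G1), 0.779, 0.780 and 0.799 (Early_S), 0.695, 0.720 and 0.739 (Late_S), 0.714, 0.732 and 0.713 (G2) and 0.677, 0.648 and 0.688 (No_alkylation). The Early_S libraries lay above all 12 others, and the No_alkylation libraries below all 12 alkylated ones. The means were 0.738 ± 0.0122 (G1), 0.786 ± 0.0111 (Early_S), 0.718 ± 0.0218 (Late_S), 0.720 ± 0.0108 (G2) and 0.671 ± 0.0207 (No_alkylation) (SD, n = 3). The ratio is a description with no test, and core reads under joined names are not in it.

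In T>C reads the ratio was lower: 0.587, 0.582 and 0.568 (G1), 0.563, 0.656 and 0.658 (Early_S), 0.555, 0.572 and 0.564 (Late_S) and 0.597, 0.602 and 0.591 (G2). Early_S replicate 1 lay below the G1 libraries and within the Late_S range, so the Early_S mean of 0.626 ± 0.0539 did not stand apart from the other phases. The core labelled share was 12.1% ± 0.151 (G1), 10.8% ± 0.563 (Early_S), 5.76% ± 0.172 (Late_S) and 6.27% ± 0.146 (G2), and the regulatory share 15.5% ± 0.170, 13.6% ± 0.510, 7.34% ± 0.125 and 7.56% ± 0.126 in the same order. In each phase all 3 regulatory values exceeded all 3 core values. These are shares of summed reads, so members with many reads weigh most: PSMD11 gave 5437 T>C reads among its 20048 G1 reads. Medians per gene covered the 13 core and 18 regulatory members with at least 200 reads in each alkylated library. Core and regulatory medians were 11.2% and 14.9% (G1), 10.0% and 14.0% (Early_S), 5.15% and 6.49% (Late_S) and 5.94% and 6.19% (G2). In No_alkylation the regulatory share of summed reads was 0.743% ± 0.0598 and the core share 0.712% ± 0.144.

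**Figure D5:**
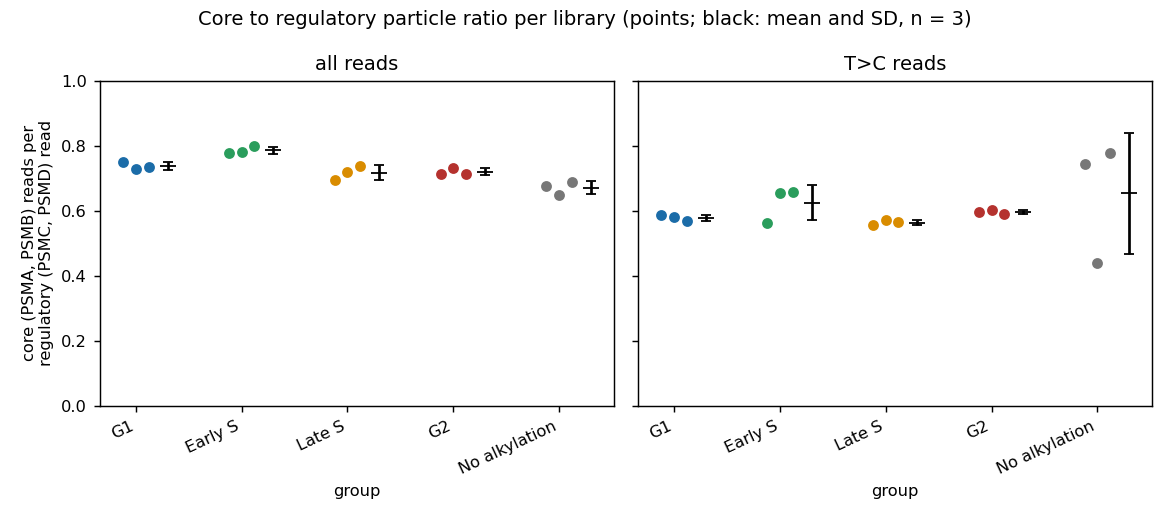
Points are the ratio of core (PSMA, PSMB) to regulatory particle (PSMC, PSMD) reads in each of 15 libraries, in all reads on the left and T>C reads on the right, with mean and SD of 3 in black and axes from 0. In all reads Early_S lies between 0.779 and 0.799, above every other library; in T>C reads the 3 No_alkylation values, which rest on 1050 to 1242 member T>C reads per library, spread from 0.440 to 0.778.

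The No_alkylation libraries also differed from the sorted phases at steady state. Against the mean of the 4 phases 30 of 43 members passed the test (edgeR; 69.8%, background 43.4%), with 7 higher (background 22.5%) and 23 lower (background 21%). All 9 tested PSMB genes were lower, from -0.91 ± 0.20 for PSMB9 and -0.91 ± 0.10 for PSMB8 to -0.31 ± 0.07 for PSMB1 (log2, SE). PSMC6 (0.62 ± 0.08), PSMG2 (0.40 ± 0.06) and PSMD5 were among the 7 higher. Calls of PSMC2, PSMD5, PSMD9, PSMD10, PSME1 and PSME4 each ended without 1 or more single libraries, in every case including a No_alkylation library (adjusted p up to 0.315). Members made up 0.871% ± 0.0187 of reads there. Alkylation, sorting and cell composition cannot be told apart in this comparison, since no label gives the cells of No_alkylation.

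Genes that act with the proteasome were read from lists chosen with earlier results of these data known. Of 10 tested assembly and associated factors, 4 differed across phases at steady state (edgeR; background 34.1% of names): POMP, ADRM1, USP14 and SEM1. POMP, the maturation factor of the core, fell from 429.5 ± 18.9 in G1 to 350.2 ± 5.53 in Early_S and stood at 296 ± 18.8 in G2 (SD, n = 3; G1 minus G2 0.54 ± 0.07, adjusted p = 3.64e-07, edgeR). ADRM1, a ubiquitin receptor, fell from G1 to Early_S (-0.50 ± 0.10, adjusted p = 0.000139) and rose to Late_S (0.31 ± 0.10, adjusted p = 0.0326). USP14, a proteasome-bound deubiquitinase, was lower in G1 than in G2 (-0.29 ± 0.08, adjusted p = 0.00783). The median G1 minus G2 difference of this list was -0.19, that of the regulators 0.18, of ubiquitin supply 0.16, of p97 and shuttle genes 0.12 and of antigen presentation 0.22, beside 0.00849 over all names.

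Of 10 tested regulators of proteasome genes 4 differed across phases, 3 of them with higher levels in G1 than in G2: the small MAF factors MAFF (70.5 ± 6.0 in G1, 23.7 ± 9.55 in G2) and MAFG, and FBXW7, a ubiquitin ligase subunit (43.8 ± 1.74 and 23.2 ± 1.36). The other was NFE2L1, named after its values were seen, with 187 ± 9.75 (G1) and 159.7 ± 14.3 (G2; test across phases, adjusted p = 0.0438, edgeR). Of 6 ubiquitin supply genes 4 differed; UBB fell from Early_S to Late_S (-0.27 ± 0.07). Of 14 p97 and shuttle genes 8 differed, with SQSTM1, an autophagy and shuttle receptor, at 844 ± 39.4 in G1 and 515 ± 30.1 in Early_S. In G1 against G2 this list had 5 higher and 4 lower, beside 10% and 11.1% of all names. For each of these lists the background of names that differed across phases at steady state was 34.1%.

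Of 12 antigen presentation genes 7 differed across phases at steady state, beside 34.1% of all names. In G1 against G2 4 were higher and 1 lower at steady state, beside 10% and 11.1%. At the nascent level 4 of the 12 differed across phases, beside 10.4% of all names. In G1 against G2 0 were higher and 3 lower at the nascent level (edgeR), beside 2.9% and 4.4%. The median nascent log2 difference was -0.29, beside 0.03 over all names. At steady state IRF1, which binds the promoters of immunoproteasome genes, was at 32.4 ± 1.62 (G1) and 17.6 ± 2.76 (G2; 0.88 ± 0.20, adjusted p = 0.000692, edgeR). PSMB8 and IRF1 were thus both higher in G1 at steady state, with the same G1 and G2 libraries behind both differences.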

How the data were processed

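Asynchronous U2OS cells were sorted into 4 phases, and 3 libraries per group were made from 3′ ends of polyadenylated RNA. Per the submitters' processing notes, the authors used slamdunk 0.2.4, hg38 and Ensembl release 90. The deposited tables give, per region, the count of reads, of T>C reads and of multimapped reads as the authors made them. The deposited conversion rate is a fraction of covered T positions, and the deposited CPM column was not used for tests. The tables hold 68625 regions, summed here by name.

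Read counts and T>C read counts were each fitted with edgeR 4.0.16 (R 4.3.3; TMM, filterByExpr with a minimum count of 10 and a total of 15, quasi-likelihood tests, Benjamini-Hochberg adjustment over all names, threshold 0.05), which was tested on simulated data. The labelled share was tested as T>C reads relative to the reads of a name without a T>C conversion, and No_alkylation against the alkylated libraries. DESeq2 1.42.0, no low-count filter, other scalings, multimapped reads left out, the region with the most reads alone, a replicate block and each library left out were alternatives. Reads carry no molecular identifiers here, so depth (16096695 to 21803972 reads) gives counting error only.

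The members and lists were chosen with earlier results of these data known. Genes described by library were, per class, the 3 with the smallest steady-state p and the 2 with the smallest nascent p across phases, the peptidase and immunoproteasome genes, and the ends of the labelled share order. Joined names were not used. No library pair held identical values (0 pairs). Values of some listed genes are not reported here.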

Additional observations from a re-analysis of the deposited data

How the results depend on the processing

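Leaving out 1 library at a time gave 14 to 21 members called across phases at steady state. Early_S against G1 gave 1 to 3 higher and 2 to 7 lower, Late_S against Early_S 1 to 2 higher and 0 to 2 lower, G2 against Late_S 0, and G1 against G2 7 to 11 higher and 3 to 4 lower. For nascent levels the counts were 2 to 4 across phases, 0 to 1 higher and 0 lower in Early_S against G1, 0 higher and 0 to 2 lower in Late_S against Early_S, 0 in G2 against Late_S, and 0 to 1 higher and 1 to 2 lower in G1 against G2. The labelled share gave 9 to 14 across phases and 40 to 42 above No_alkylation, and No_alkylation against the phases gave 6 to 8 higher and 20 to 23 lower. The core to regulatory ratio in all reads ranged over 0.731 to 0.743 in G1, 0.780 to 0.790 in Early_S, 0.708 to 0.730 in Late_S, 0.714 to 0.723 in G2 and 0.663 to 0.683 in No_alkylation, and in T>C reads over 0.575 to 0.584, 0.610 to 0.657, 0.560 to 0.568 and 0.594 to 0.60 in the 4 phases.

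Other settings moved these values, and the cause was not tested. With the region of most reads alone, 3 members were lower in Early_S against G1. In Late_S against Early_S 4 were lower by DESeq2, 2 without the low-count filter and 4 with the replicate block. Among nascent levels, Early_S against G1 gave 1 higher by DESeq2, without the filter and with the replicate block, and Late_S against Early_S gave 2 lower under each of them; G1 against G2 gave 1 higher and 2 lower by DESeq2. Scaled by all reads, nascent calls were 32 members across phases, beside 6367 of 11620 names. In Early_S against G1 1 member was lower (771 names), and in Late_S against Early_S 27 were lower (3942 names). In G1 against G2 30 were higher and 0 lower (6113 and 60 names). The labelled share then gave 32 members, beside 7120 of 11291 names. The median name moved by -0.37, -0.87 and 1.26 in these nascent contrasts, beside -0.0109, -0.00539 and 0.0299 in the main scaling. Scaling by all reads keeps the fall of the labelled share over all reads, from 22.3% in G1 to 10.1% in G2. The all-reads ratio became 0.754, 0.802, 0.741, 0.744 and 0.698 in G1, Early_S, Late_S, G2 and No_alkylation without multimapped reads, 0.797, 0.855, 0.774, 0.782 and 0.721 with the region of most reads alone, and 0.905, 0.984, 0.855, 0.880 and 0.806 as a mean of log2 levels. The T>C ratio became 0.639, 0.708, 0.650 and 0.674 in the 4 phases with the region of most reads alone and 0.899, 0.949, 0.892 and 0.889 as a mean of log2 levels. The order of the phases in the T>C ratio therefore depended on the setting: G2 fell below G1 as a mean of log2 levels, and Late_S rose above G1 with the region of most reads alone. The nascent G1 against G2 calls of members turned from 1 lower to 30 higher when scaled by all reads.

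No label pairs libraries by replicate number. The deviations of each library from its group mean were correlated between libraries of different groups, so these are not correlations of levels. No same-numbered pair reached a correlation of 0.1, so the numbers were not taken as pairs. The correlations of these deviations for same-numbered libraries lay between -0.0166 and 0.0308 in all reads and between -0.0219 and 0.0704 in T>C reads. Their medians were 0.00829 and 0.00723, against -0.0029 and -0.00244 for other numbers. In all reads 9 of 12 libraries and in T>C reads 7 of 12 correlated best with their own number, though same-numbered pairs were fewer (18 against 36). This is a hint of pairing from the data and not the design. With the replicate block 21 members were called across phases at steady state, PSMB4 and PSMD12 being added. Nascent tests rest on fewer reads than steady-state tests, most of all in Late_S and G2, and reads under joined names are missing from PSMA1, PSMA2, PSMA6 and PSMB10.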
